A study of Homo sapiens with 6 samples.

Results

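PTGS2, OLR1 and IL18 are 3 of the 14884 genes named on 6 single-channel Affymetrix arrays of Caco-2 cells, a widely used line from a human colon carcinoma whose cells take on features of enterocytes in culture. Each had 1 probe set, found by its gene symbol. They were chosen from how their signal differed between the groups, so their own values are a description and carry no test. Lentivirus delivered a short hairpin RNA (shRNA) before the cells were confluent, and total RNA was taken 17 days later. One group carried FAM46A-shRNA#2 and another FAM46A-shRNA#4, a pair of different hairpins against FAM46A, which is also called TENT5A and belongs to the terminal nucleotidyltransferases that lengthen poly(A) tails, and the control group carried scramble shRNA. The 3 groups held 2 arrays each, all from 1 cell line that had been infected, and the labels name neither the promoter of the hairpin nor any selection. The comparisons ask which transcripts differ from scramble with each hairpin, and where the hairpins differ from each other. The level of FAM46A was not analysed here, so the groups follow the labels alone.

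Each value is a log2 signal from which the 6-array median of the same probe set was taken away. Only differences between arrays can be read from it, not how strongly a gene was expressed, and the base of the logarithm was taken as 2. Whether the cells were epithelial in absolute terms could not be read from such values either. Errors after ± are standard errors (SE) of a limma fit over all 6 arrays (n = 2 per group), unless marked SD. A gene was called at a Benjamini-Hochberg adjusted p under 0.05 over all 14884 genes. By this rule 21.6% of all genes were called for shRNA#2 against scramble (12.1% higher and 9.54% lower), and 26.1% for shRNA#4 against scramble (15.7% higher and 10.4% lower). For shRNA#2 against shRNA#4 it was 15.3% (6.64% higher and 8.63% lower). The median difference over all genes lay near 0 in each of them (-0.0018, 0.0045 and -0.0089). Both hairpin comparisons use the same 2 scramble arrays. In RNA of a whole culture, fewer cells that express a gene and less of its RNA per cell cannot be told apart.

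All 3 genes have known parts in inflammation, at different steps. PTGS2 encodes cyclooxygenase-2, the inducible enzyme that turns arachidonic acid into the precursor of prostaglandins. In the colon it is raised in many carcinomas, and its product prostaglandin E2 acts on epithelial cells through cAMP-coupled receptors. OLR1 encodes LOX-1, a C-type lectin-like scavenger receptor for oxidised low-density lipoprotein, best known from endothelium and macrophages. IL18 encodes a cytokine of the IL-1 family that gut epithelium holds as an inactive precursor, which caspase-1 cleaves after inflammasome activation, and which IL-18 binding protein neutralises outside the cell.

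The PTGS2 gene lies on chromosome 1 (chr1:186671791-186680423, GRCh38.p14), OLR1 on chromosome 12 (chr12:10158301-10176266) and IL18 on chromosome 11 (chr11:112143260-112164094). The position of the probes within the transcripts was not analysed here. Of the 3, PTGS2 had a promoter in the RefSeq table for GRCh38.p14. Its 250 bases before the start site (chr1:186680424-186680673, minus strand) are shown because genes of factors known to act at this promoter are described below. Not all of those factors have a motif among those searched. Capitals mark, in order from 5′ to 3′, a match to an NF-kappa-B-like motif that opens with GGG and closes with CC, a C/EBP-like motif (TTACGCAA), a cAMP response element core (CGTCA) joined to an E-box (CANNTG), and a TATA box (TATAAA).
PTGS2 promoter: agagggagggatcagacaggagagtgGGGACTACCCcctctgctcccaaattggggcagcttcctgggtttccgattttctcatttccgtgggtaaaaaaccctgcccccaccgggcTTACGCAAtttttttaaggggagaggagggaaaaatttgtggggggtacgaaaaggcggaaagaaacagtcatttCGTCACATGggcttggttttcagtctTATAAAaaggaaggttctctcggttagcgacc
Motifs were searched on both strands. The last base of the element core and the one before it are also the first bases of the E-box. Over 35116 promoter windows of the same length, the C/EBP-like motif was present in 0.148%, the TATA box in 10.7%, the NF-kappa-B-like motif in 19.7%, the element core in 21.2% and the E-box in 61.8%. An AP-1 motif (TGANTCA), present in 6.57% of the windows, had no match in this one. A match shows that the letters are there, and nothing about a factor being bound.

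PTGS2 was highest in the shRNA#4 arrays. Relative to its median it stood at -0.12 and 0.12 in the shRNA#2 arrays, at 1.70 and 1.92 in the shRNA#4 arrays, and at -0.36 and -0.29 in the scramble arrays. The lower shRNA#4 array thus lay 1.58 above the higher shRNA#2 array and 1.99 above the higher scramble array. The shRNA#2 arrays did not overlap the scramble arrays either. Over all genes, groups did not overlap for 58.6% in shRNA#2 against scramble, for 58.6% in shRNA#4 against scramble and for 54.5% in shRNA#2 against shRNA#4, so such separation was common. With shRNA#4 the difference from scramble was 2.13 ± 0.106, or 4.39-fold higher. Ranked by size among the rises with that hairpin, PTGS2 came at place 3 of all genes. With shRNA#2 the difference was 0.33 ± 0.106, or 1.25-fold higher, and 16.9% of all genes differed at least as much. Without replicate 2 of shRNA#2 that difference was 0.21. Between the hairpins PTGS2 was lower with shRNA#2 by 1.81 ± 0.106, or 3.50-fold, which only 4 genes exceeded in size.

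OLR1 lay on opposite sides of scramble with the 2 hairpins. Its arrays stood at -1.23 and -0.99 with shRNA#2, at 1.41 and 1.24 with shRNA#4, and at -0.26 and 0.26 with scramble. No array of one group came within the range of another. OLR1 was 2.16-fold lower with shRNA#2 than with scramble (-1.11 ± 0.176) and 2.51-fold higher with shRNA#4 (1.33 ± 0.176). Between the hairpins it was 5.42-fold lower with shRNA#2 (-2.44 ± 0.176), at place 1 of all 14884 genes by size of that difference. The pattern of both shRNA#2 arrays below and both shRNA#4 arrays above the scramble arrays was shown by 3.42% of all genes, and 6.11% had the hairpins on opposite sides in either order. Since OLR1 was chosen from these values, nothing is read from those shares. The scramble arrays themselves were 0.515 apart in OLR1, a gap that 0.316% of all genes reached, beside 0.0688 in PTGS2 and 0.116 in IL18. Without replicate 1 of scramble the differences from scramble were -1.37 with shRNA#2 and 1.07 with shRNA#4, and without replicate 2 they were -0.85 and 1.58.

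IL18 was lower with both hairpins. Its arrays stood at -0.04 and -0.28 with shRNA#2, at 0.03 and -0.03 with shRNA#4, and at 0.74 and 0.63 with scramble. All 4 hairpin arrays lay below both scramble arrays, a pattern of 16.7% of all genes, while 19.5% had all 4 above. The difference from scramble was -0.84 ± 0.0897 with shRNA#2, or 1.79-fold lower, and -0.69 ± 0.0897 with shRNA#4, or 1.61-fold lower. IL18 was at place 210 among the falls with shRNA#2 and at place 388 among those with shRNA#4. Between the hairpins the difference was small (-0.16 ± 0.0897), and 32.0% of all genes differed at least as much. It was -0.28 without replicate 1 of shRNA#2 and -0.037 without replicate 2.

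**Figure D1:**
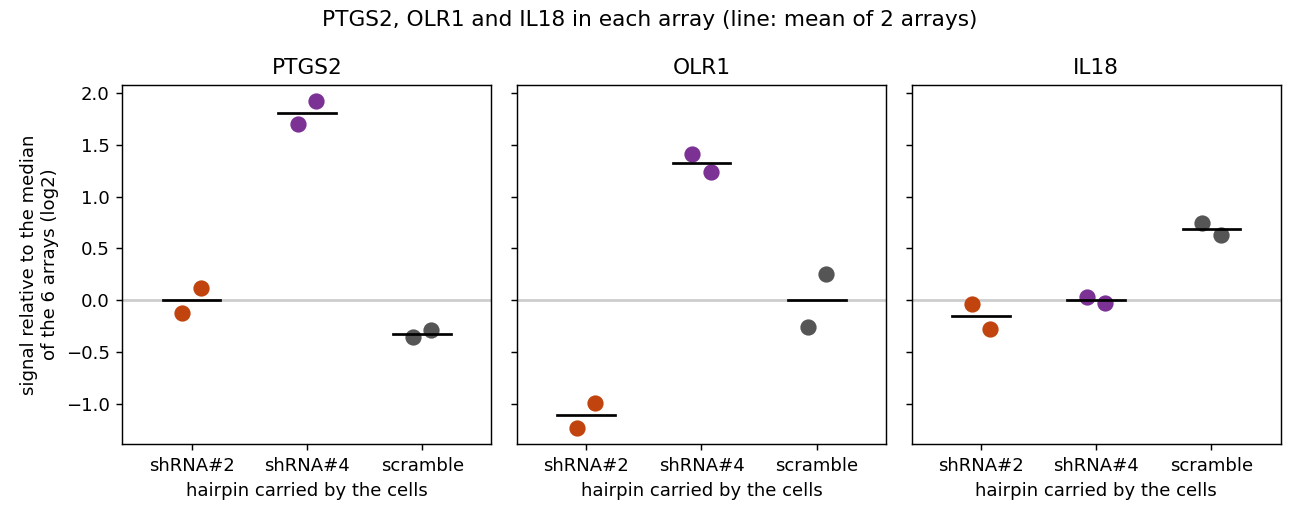
Signal of PTGS2, OLR1 and IL18 in each of the 6 arrays, on a log2 scale relative to the median of the 6 arrays, by hairpin; points are arrays and lines the means of 2. PTGS2 is high with shRNA#4 (1.70 and 1.92), OLR1 is low with shRNA#2 and high with shRNA#4, and IL18 is lower with both hairpins than with scramble.

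The 3 genes therefore did not share 1 pattern. Over the 6 arrays, PTGS2 and OLR1 had a Pearson r of 0.81, PTGS2 and IL18 one of -0.48, and OLR1 and IL18 one of 0.097. These 6 points come from 3 groups of like arrays, so the coefficients mainly restate the group means.

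**Figure D2:**
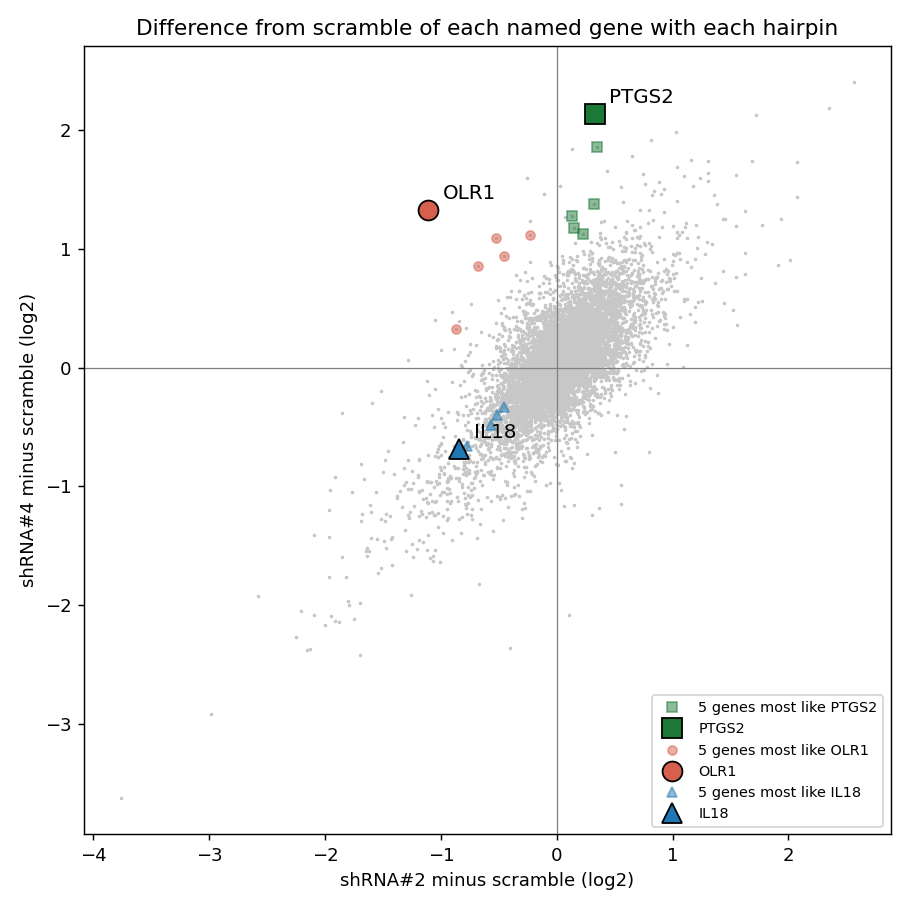
Difference from scramble (log2) with shRNA#2 on the horizontal axis and with shRNA#4 on the vertical axis; grey points are the named genes, large symbols PTGS2, OLR1 and IL18, and small symbols the 5 genes most like each of them. PTGS2 sits high near the vertical axis (0.33 and 2.13), OLR1 at the upper left edge of all genes (-1.11 and 1.33) and IL18 at the lower left (-0.84 and -0.69); both axes share the scramble arrays.

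The genes of prostanoid synthesis and turnover lie around PTGS2, from the making of its substrate to the removal of its product. Of 19 measured, 5 rose and 3 fell with shRNA#2, and 4 rose and 4 fell with shRNA#4. That is 42.1% called with either hairpin, beside 21.6% and 26.1% of all genes, and the list's median differences were 0.0925 and 0.00155. In all, 10 of the 19 were called with at least 1 hairpin and 9 with neither. PLA2G4A, the phospholipase that releases arachidonic acid, was not analysed here. ELOVL5, which elongates polyunsaturated fatty acids on the way to and beyond arachidonic acid, rose by 1.45 ± 0.0641 with shRNA#2 and by 1.25 ± 0.0641 with shRNA#4 (limma adjusted p 0.000298 and 0.000291). Its arrays stood at 0.28 and 0.12 with shRNA#2, at -0.01 and 0.01 with shRNA#4, and at -1.26 and -1.24 with scramble, so both hairpins were clear of the controls. LPCAT3, which places polyunsaturated chains into phospholipids, fell by 1.02 ± 0.0454 and by 0.75 ± 0.0454 (0.000298 and 0.00037). It was lower with shRNA#2 than with shRNA#4 by 0.27 ± 0.0454 (0.0134), a call that ended without any 1 of the 4 hairpin arrays (0.0546 to 0.084).

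HPGD, the dehydrogenase that inactivates prostaglandin E2, was lower with both hairpins too. It stood at 0.08 and -0.08 with shRNA#2, at -0.36 and -0.26 with shRNA#4, and at 0.95 and 0.58 with scramble. It fell by 1.07 ± 0.127 with shRNA#4 (limma adjusted p 0.00223) and by 0.76 ± 0.127 with shRNA#2 (0.00919), and the second call ended without replicate 2 of shRNA#2 (0.0553). PTGIS, which makes prostacyclin, fell by 0.65 ± 0.0816 with shRNA#2 and by 1.19 ± 0.0816 with shRNA#4 (limma adjusted p 0.00357 and 0.000454). The fall was the smaller with shRNA#2, by 0.54 ± 0.0816 between the hairpins (adjusted p 0.0103, but 0.0673 without replicate 1 of shRNA#2). PTGR2, a reductase of prostaglandin metabolites, fell by 0.29 ± 0.0471 with shRNA#4 and stood at 0.13 ± 0.0471 with shRNA#2, a difference between the hairpins of 0.42 ± 0.0471 (adjusted p 0.00455).

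Neither PTGS1, the constitutive cyclooxygenase, nor PTGES, the inducible prostaglandin E synthase, was called. PTGS1 differed from scramble by -0.07 ± 0.0506 with shRNA#2 and by -0.02 ± 0.0506 with shRNA#4. PTGES differed by 0.12 ± 0.0656 with shRNA#2 and was within its SE of 0 with shRNA#4. Of 14 measured genes of prostanoid receptors and cAMP signalling, 3 rose and 1 fell with shRNA#2, and 0 rose and 2 fell with shRNA#4. As shares this was 28.6% and 14.3%, beside 21.6% and 26.1% of all genes. PTGER4, a receptor of prostaglandin E2, stood at 0.08 ± 0.06 and 0.11 ± 0.06 and was not called. PPARG, a nuclear receptor for fatty acid derivatives, fell by 0.60 ± 0.0986 with shRNA#4 (limma adjusted p 0.0069) and was at -0.11 ± 0.0986 with shRNA#2. Its difference between the hairpins (0.49 ± 0.0986, adjusted p 0.0237) was not called once any 1 of the 4 hairpin arrays was left out (0.0597 to 0.108). ADCY6, an adenylate cyclase, fell by 0.36 ± 0.0502 with shRNA#2 and by 0.22 ± 0.0502 with shRNA#4. CREB1 and CREM, transcription factors that answer to cAMP, rose with shRNA#2 by 0.36 ± 0.0829 and 0.32 ± 0.0664. The calls of CREB1, of CREM and of ADCY6 with shRNA#4 each ended when single arrays were left out (highest adjusted p 0.125, 0.113 and 0.0992). ADCY6 is the mean of 2 probe sets, and with the first of them alone it was not called with either hairpin (0.638 and 0.989). Here and below, p-values from a first probe set alone were adjusted over all 48144 probe sets rather than over 14884 genes.

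Lipoxygenases draw on the same arachidonic acid and lead to leukotrienes. The 15 measured genes of this list were 12 of synthesis and turnover and 3 receptors (LTB4R, CYSLTR1 and CYSLTR2), of which 0 were called. Of the 15, 2 rose and 0 fell with shRNA#2, and 1 rose and 1 fell with shRNA#4, 13.3% with either, beside 21.6% and 26.1% of all genes. LTA4H, which makes leukotriene B4, rose by 0.54 ± 0.0814 with shRNA#2 (limma adjusted p 0.00626) and stood at 0.11 ± 0.0814 with shRNA#4. The difference between the hairpins was 0.43 ± 0.0814 (0.0194), a call that ended without replicate 1 of shRNA#2 or of shRNA#4 (0.0974 and 0.0882). MGST1, a microsomal glutathione transferase, rose by 0.50 ± 0.0762 and 0.42 ± 0.0762, of which the second call ended without replicate 1 of scramble or of shRNA#4 (0.0532 and 0.0535). MGST3 of the same family fell by 0.32 ± 0.0564 with shRNA#4 (0.00898).

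**Figure D3:**
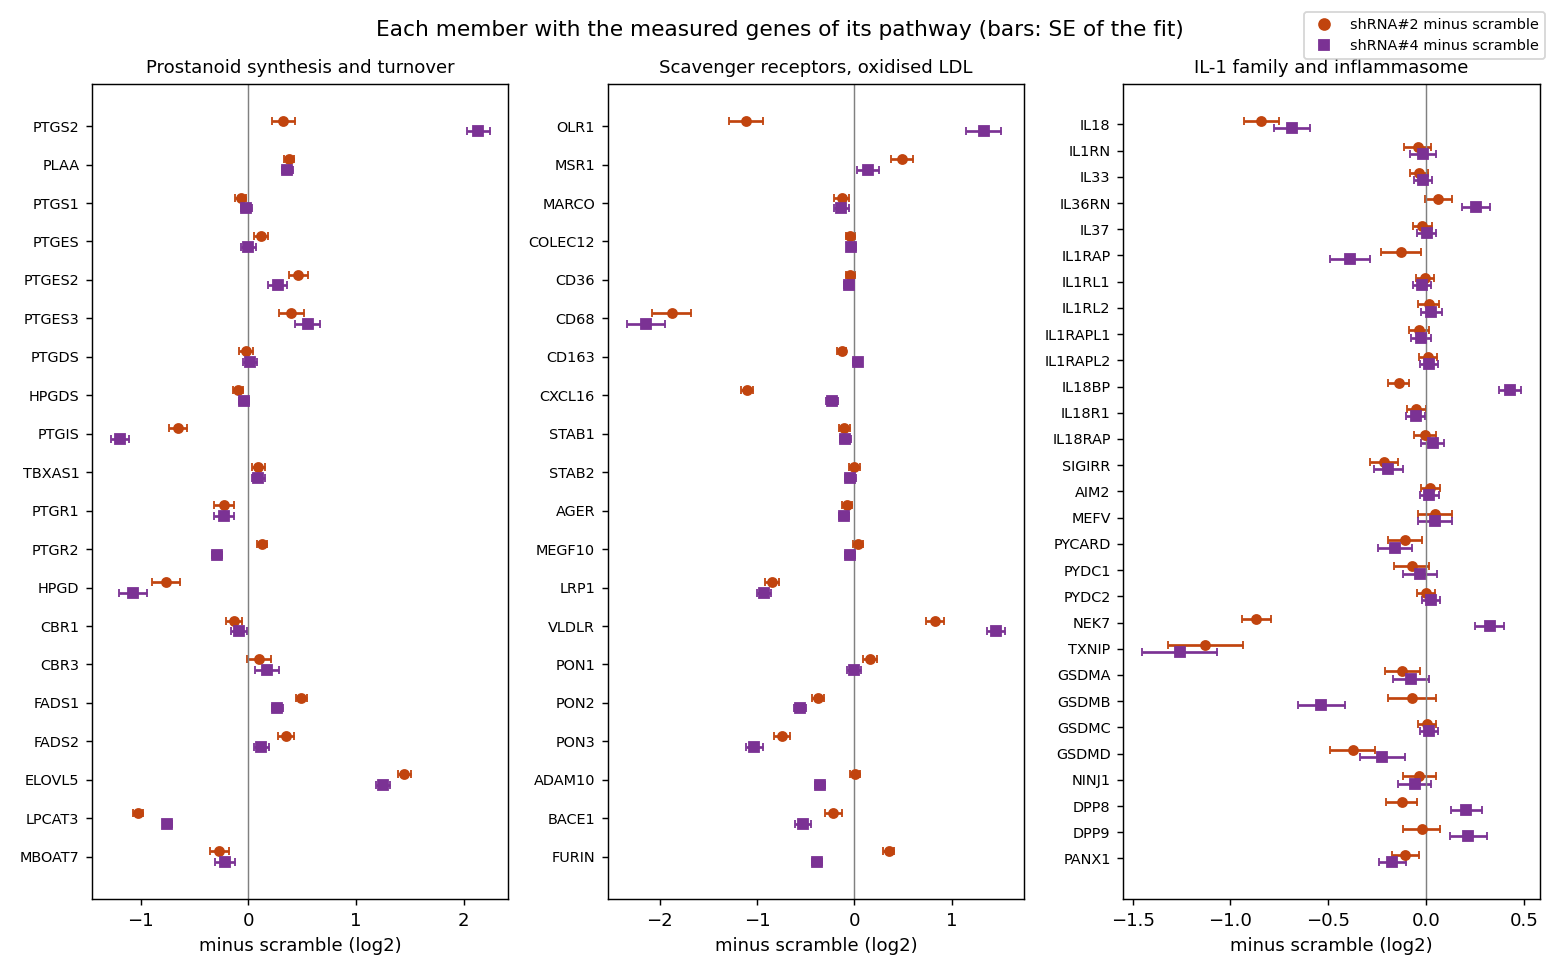
Difference from scramble (log2, bars are SE) with shRNA#2 (circles) and shRNA#4 (squares) for PTGS2, OLR1 and IL18 in the top row of each panel and the measured genes of their pathways below. PTGS2 and OLR1 show wide gaps between the hairpins, while ELOVL5, LPCAT3, CD68 and TXNIP lie well away from 0 on the same side with both.

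Among 20 measured genes of transcription factors known to act at the PTGS2 promoter, 5 rose and 2 fell with shRNA#2. With shRNA#4, 5 rose and 3 fell. Called shares were 35.0% and 40.0%, beside 21.6% and 26.1% of all genes. Between the hairpins 3 were higher and 4 lower with shRNA#2, 35.0% of the list beside 15.3% of all genes. JUN, an AP-1 subunit, had high values where PTGS2 did. It stood at -0.17 and -0.08 with shRNA#2, at 0.63 and 0.81 with shRNA#4, and at 0.08 and -0.15 with scramble. JUN rose by 0.76 ± 0.0992 with shRNA#4 (limma adjusted p 0.00312), was at -0.09 ± 0.0992 with shRNA#2 (0.625), and was lower with shRNA#2 than with shRNA#4 by 0.85 ± 0.0992 (0.00508). FOSL2, another AP-1 subunit, fell with both hairpins, by 0.93 ± 0.0626 and 0.91 ± 0.0626 (0.000666 and 0.000454). ETV4, an ETS factor, rose by 0.64 ± 0.0532 with shRNA#2 and by 0.20 ± 0.0532 with shRNA#4, and the second call ended on leaving out any 1 of the 6 arrays (highest adjusted p 0.154). ETV5, a close relative, was higher with shRNA#2 than with shRNA#4 by 0.55 ± 0.0996 (0.0172, and up to 0.0987 with single arrays left out).

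PTGS2 mRNA is short-lived and is bound through AU-rich elements, and 15 regulators acting on such elements or on mRNA stability were measured. With shRNA#2, 3 rose and 0 fell, and with shRNA#4, 4 rose and 1 fell. Called shares were 20.0% and 33.3%, beside 21.6% and 26.1% of all genes. The fall with shRNA#4 was in TIA1, which silences translation of mRNAs with such elements, PTGS2 among them. The arrays measure RNA and not translation, and the part of TIA1 in the PTGS2 values was not tested. TIA1 stood at 0.05 and -0.01 with shRNA#2, at -0.42 and -0.62 with shRNA#4, and at 0.04 and 0.01 with scramble. It fell by 0.54 ± 0.0751 with shRNA#4 (limma adjusted p 0.0039) and was higher with shRNA#2 than with shRNA#4 by 0.54 ± 0.0751 (0.00813, and 0.0583 without replicate 1 of shRNA#2). IGF2BP3, an mRNA-binding protein, rose by 0.71 ± 0.0888 with shRNA#2 (0.0036) and was at 0.11 ± 0.0888 with shRNA#4. Its difference between the hairpins was 0.60 ± 0.0888 (0.00941, but 0.0621 without replicate 1 of shRNA#2). IGF2BP2 rose by 0.46 ± 0.0578 and 0.26 ± 0.0578, and ZC3H12C, a ribonuclease of the regnase family, by 0.44 ± 0.0924 with shRNA#4. The shRNA#4 calls of IGF2BP2 and ZC3H12C ended when single arrays were left out (highest adjusted p 0.0858 and 0.0819).

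For OLR1 the first set beside it was that of other scavenger receptors and genes that handle oxidised lipoprotein. The list also held the lipoprotein receptors LRP1 and VLDLR and the proteases ADAM10, BACE1 and FURIN. Of 19 measured, 3 rose and 5 fell with shRNA#2, and 1 rose and 8 fell with shRNA#4. Called shares were 42.1% and 47.4% of the list, beside 21.6% and 26.1% of all genes. VLDLR and FURIN, called with both hairpins, count in these shares. CD68, a lysosomal membrane protein that binds oxidised lipoprotein, stood at -0.29 and 0.09 with shRNA#2, at -0.64 and -0.09 with shRNA#4, and at 1.72 and 1.83 with scramble. It fell by 1.88 ± 0.198 with shRNA#2 and fell by 2.14 ± 0.198 with shRNA#4 (limma adjusted p 0.00219 and 0.00102). PON3, a paraoxonase that protects lipoproteins from oxidation, fell by 0.74 ± 0.0834 and 1.03 ± 0.0834 (0.00261 and 0.000693). VLDLR, a lipoprotein receptor, rose by 0.83 ± 0.0904 and 1.46 ± 0.0904, and was lower with shRNA#2 than with shRNA#4 by 0.63 ± 0.0904 (0.00852, but 0.0597 without replicate 1 of shRNA#2 and 0.051 without replicate 2 of shRNA#4).

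CXCL16, at once a chemokine and a scavenger receptor for oxidised lipoprotein, was lowest with shRNA#2. It stood at -0.89 and -0.87 with shRNA#2, at -0.01 and 0.01 with shRNA#4, and at 0.29 and 0.16 with scramble. CXCL16 fell by 1.10 ± 0.0592 with shRNA#2 (limma adjusted p 0.000411) and was lower with shRNA#2 than with shRNA#4 by 0.88 ± 0.0592 (0.00183). With shRNA#4 it fell by 0.23 ± 0.0592, a call that ended on leaving out any 1 of 5 arrays, all but replicate 2 of scramble (highest adjusted p 0.144). FURIN, a proprotein convertase, ran the other way to OLR1 with each hairpin. It rose by 0.35 ± 0.0557 with shRNA#2 and fell by 0.39 ± 0.0557 with shRNA#4 (0.00744 and 0.00443), a difference between the hairpins of 0.74 ± 0.0557 (0.00219). Its rise with shRNA#2 was not called without replicate 1 of that group (0.0517). MSR1, the class A macrophage scavenger receptor, rose by 0.49 ± 0.11 with shRNA#2 (0.0258), a call that ended without any 1 of the 4 arrays compared. CD36, a receptor for oxidised lipoprotein and fatty acids, was at -0.04 ± 0.0462 and -0.06 ± 0.0462.

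OLR1 shares 5754 bases of chromosome 12 with TMEM52B, a gene of a transmembrane protein, and this neighbour had a pattern of the same signs. TMEM52B, measured by 2 probe sets, stood at -0.49 and -0.32 with shRNA#2, at 0.33 and 0.20 with shRNA#4, and at -0.07 and 0.07 with scramble. Its groups did not overlap. Groups were separate for 58.6% of all genes with either hairpin against scramble and for 54.5% between the hairpins. Both shRNA#2 arrays lay below and both shRNA#4 arrays above the scramble arrays in 3.42% of all genes. It fell by 0.41 ± 0.0855 with shRNA#2 (limma adjusted p 0.0201) and was at 0.27 ± 0.0855 with shRNA#4 (0.0676). Between the hairpins TMEM52B was lower with shRNA#2 (-0.68 ± 0.0855, 0.00602). The fall with shRNA#2 was not called without replicate 2 of scramble or replicate 1 of shRNA#2 (0.0875 and 0.102). How far the probe sets of the overlapping genes read each other's transcripts was not tested.

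Farther out, GABARAPL1, an autophagy gene 36.6 kb from OLR1, rose by 0.31 ± 0.0664 with shRNA#4 (limma adjusted p 0.0187), a call that ended when single arrays were left out (highest adjusted p 0.0853). The pseudogene KLRA1P, 412.2 kb away, rose by 0.61 ± 0.0853 and 0.63 ± 0.0853 with the hairpins (0.00497 and 0.00362). CD69, an activation marker of lymphocytes and the 1 measured gene of 25 listed C-type lectins of the 12p13 cluster, was at -0.02 ± 0.0461 and -0.04 ± 0.0461. Measured genes were sparse around PTGS2. On one side PDC, ODR4 and PRG4 lie 210.7, 236.8 and 357.2 kb away, and on the other LINC01720, RGS18 and RGS21 lie 3944.5, 5478.0 and 5636.6 kb away, which is no local neighbourhood. None of these was called in any comparison, and PDC differed by -0.02 ± 0.0615 and 0.05 ± 0.0615. Of the 6 around IL18, TIMM8B, a gene of mitochondrial protein import 56.5 kb away, rose by 0.39 ± 0.0639 and 0.28 ± 0.0639 (0.00872 and 0.0215), opposite in sign to IL18. Both TIMM8B calls ended when single arrays were left out (highest adjusted p 0.0586 and 0.0937). TEX12, 3.3 kb from IL18, differed by -0.015 ± 0.0533 and -0.03 ± 0.0533, and BCO2, PTS, PIH1D2 and NKAPD1 were not called.

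**Figure D4:**
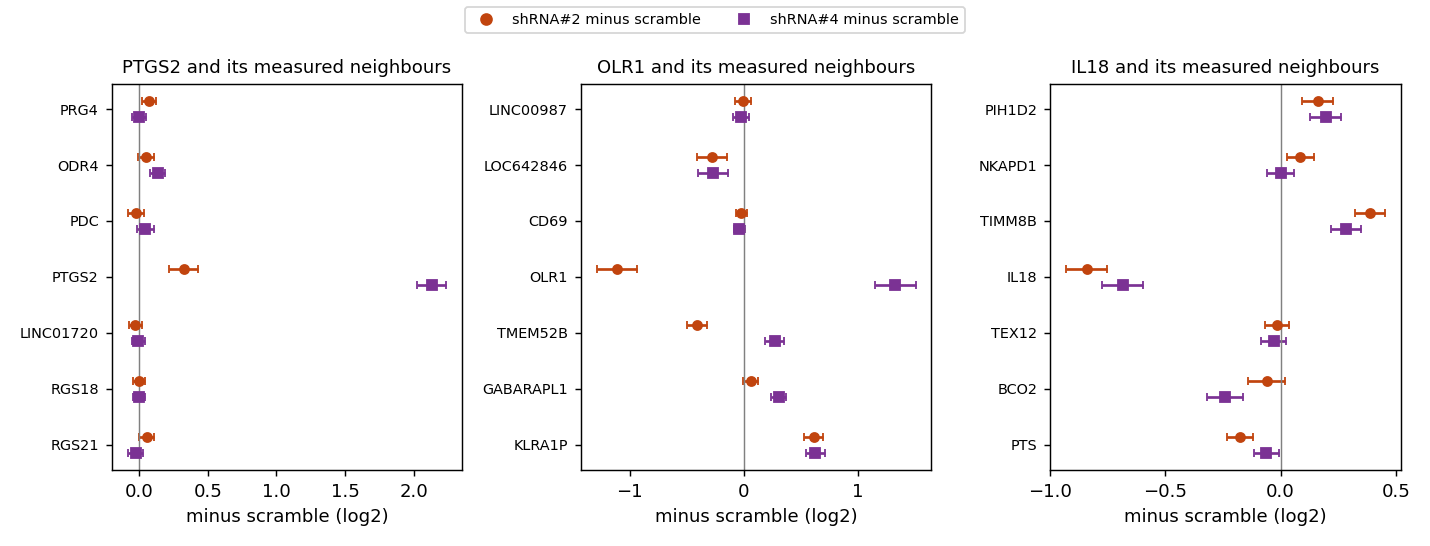
Difference from scramble (log2, bars are SE) with shRNA#2 (circles) and shRNA#4 (squares) for PTGS2, OLR1 and IL18 in the middle row of each panel and the 3 nearest measured genes on each side, in gene order. TMEM52B, which overlaps OLR1, lies on the same sides as OLR1 (-0.41 and 0.27), while the genes on either side of PTGS2, some of them several megabases away, stay near 0.

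Of the IL-18 axis, the receptors, the decoy and some inflammasome genes were measured. Caspase-1, which cleaves the precursor, was not analysed here, nor were CASP4 and IL1B. Of 13 measured ligands, receptors and decoys of the IL-1 family, 0 were called with shRNA#2 by limma (2 had an unadjusted p under 0.05). With shRNA#4, 2 rose and 1 fell, or 23.1%. Over all genes 21.6% were called with shRNA#2 and 26.1% with shRNA#4. IL18BP, the secreted decoy that neutralises IL-18, stood at -0.19 and -0.09 with shRNA#2, at 0.45 and 0.41 with shRNA#4, and at 0.00 in both scramble arrays. It rose by 0.43 ± 0.0546 with shRNA#4 (limma adjusted p 0.00283), was at -0.14 ± 0.0546 with shRNA#2 (0.137), and differed between the hairpins by -0.57 ± 0.0546 (0.00304). The receptor chains IL18R1 (-0.05 ± 0.0468 with either hairpin) and IL18RAP (-0.0054 ± 0.0585 and 0.03 ± 0.0585) were not called. IL1RAP, the shared accessory receptor, fell by 0.39 ± 0.102 and IL36RN, a receptor antagonist, rose by 0.26 ± 0.0715 with shRNA#4. Both calls ended when single arrays were left out (highest adjusted p 0.143 and 0.172).

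The 15 measured inflammasome genes held no caspase and no NLRP sensor. They were the sensors AIM2 and MEFV, the adaptor PYCARD, gasdermins and regulators. Of the 15, 0 rose and 2 fell with shRNA#2, and 1 rose and 2 fell with shRNA#4. Called shares were 13.3% and 20.0%, beside 21.6% and 26.1% of all genes. NEK7, a kinase needed to assemble the NLRP3 inflammasome, had the largest called difference between the hairpins in this list. It stood at -0.96 and -0.78 with shRNA#2, at 0.36 and 0.29 with shRNA#4, and at -0.04 and 0.04 with scramble. NEK7 fell by 0.87 ± 0.0742 with shRNA#2 (limma adjusted p 0.00121) and rose by 0.33 ± 0.0742 with shRNA#4 (0.0222), although the rise was not called once any 1 of the 4 arrays compared was left out (0.0508 to 0.108). Between the hairpins it was lower with shRNA#2 by 1.19 ± 0.0742 (0.00154). TXNIP, a thioredoxin inhibitor that can bind NLRP3, fell with both hairpins, by 1.13 ± 0.192 and 1.26 ± 0.192 (0.00986 and 0.00536). The TXNIP call with shRNA#2 ended without replicate 2 of that group (0.0567). GSDMB, a pore-forming gasdermin, fell by 0.54 ± 0.121 with shRNA#4, a call that ended when single arrays were left out (highest adjusted p 0.0975). DPP8, a peptidase that restrains the NLRP1 and CARD8 inflammasomes, was lower with shRNA#2 than with shRNA#4 by 0.33 ± 0.0782 (0.0391, and up to 0.177 with single arrays left out). PYCARD, the adaptor that brings caspase-1 to the sensors, was at -0.11 ± 0.0861 and -0.16 ± 0.0861 and was not called.

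The NF-kappa-B pathway and toll-like receptors act upstream of many inflammatory genes, PTGS2 among them. Of 39 measured genes, 3 rose and 4 fell with shRNA#2 (17.9%, beside 21.6% of all genes). With shRNA#4, 6 rose and 2 fell (20.5%, beside 26.1%). Between the hairpins 2 were higher and 7 lower with shRNA#2 (23.1%, beside 15.3% of all genes). The genes named next were picked by size. They include none of the 6 rises with shRNA#4 and, of the 7 lower genes, only TLR2. TLR2, a receptor for bacterial lipopeptides, fell by 0.58 ± 0.0752 with shRNA#2 (limma adjusted p 0.00396), was at 0.03 ± 0.0752 with shRNA#4, and was lower with shRNA#2 than with shRNA#4 by 0.62 ± 0.0752 (0.00558). Of the signalling adaptors TRAF5 rose by 0.72 ± 0.123 and TRAF3 by 0.43 ± 0.0664 with shRNA#2 (0.00998 and 0.00708). TRAF3 was higher with shRNA#2 than with shRNA#4 by 0.52 ± 0.0664 (0.0063). RIPK2, the kinase of NOD receptors, rose by 0.55 ± 0.106 with shRNA#2 and was higher with it than with shRNA#4 by 0.43 ± 0.106 (0.0437, but up to 0.187 with single arrays left out), and TAB3, a partner of the kinase TAK1, fell by 0.57 ± 0.135 with shRNA#4. The calls of RIPK2 and TAB3 against scramble ended when single arrays were left out (highest adjusted p 0.0729 and 0.121), and TAB3 was not called from the first of its 2 probe sets alone (0.231).

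Of 33 measured epithelial cytokines, chemokines and acute inflammatory genes, 0 rose and 4 fell with shRNA#2, and 1 rose and 1 fell with shRNA#4. Both shares, 12.1% and 6.06% of the list, were below the 21.6% and 26.1% of all genes. ICAM1, an adhesion molecule induced by NF-kappa-B, stood at -0.52 and -0.48 with shRNA#2, at 0.09 and 0.26 with shRNA#4, and at -0.02 and 0.02 with scramble. It fell by 0.50 ± 0.069 with shRNA#2 (limma adjusted p 0.00483), was at 0.18 ± 0.069 with shRNA#4 (0.122), and was lower with shRNA#2 than with shRNA#4 (-0.68 ± 0.069, 0.00345). IL32, a proinflammatory cytokine, fell by 0.35 ± 0.0655 with shRNA#2 and was lower with it than with shRNA#4 by 0.44 ± 0.0655. CCL20, a chemokine for dendritic cells and lymphocytes, rose by 0.50 ± 0.107 with shRNA#4 and differed between the hairpins by -0.49 ± 0.107. DUOX2, which makes hydrogen peroxide at the apical membrane, fell by 0.33 ± 0.0796 and 0.39 ± 0.0796. The calls of IL32, CCL20 and DUOX2 ended when single arrays were left out, with highest adjusted p-values of 0.0777 for IL32, 0.151 for CCL20 and 0.135 for DUOX2.

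By Pearson r over the 6 arrays, the genes most like PTGS2 among 289 protein-coding genes with at least 0.5 of its SD over the arrays were ATF3 (0.996), POMK (0.996), FRY (0.993), EDN1 (0.992) and ANXA1 (0.991). They encode a stress-induced transcription factor, a kinase of O-mannosyl glycans, a large protein of cell morphogenesis, endothelin-1 and annexin A1. Their differences from scramble lay between 0.14 for POMK and 0.35 for EDN1 with shRNA#2. With shRNA#4 they lay between 1.13 for ANXA1 and 1.85 for EDN1. ATF3 was at 0.15 ± 0.0643 with shRNA#2 and 1.18 ± 0.0643 with shRNA#4. Most like OLR1 among 233 such genes were CSGALNACT2 (0.985), HMOX1 (0.973), DKK1 (0.958), NEK7 (0.949) and TAGLN (0.945). Of these CSGALNACT2, an enzyme of chondroitin sulfate synthesis, was at -0.68 ± 0.0983 with shRNA#2 and 0.85 ± 0.0983 with shRNA#4. HMOX1, the inducible heme oxygenase, was at -0.46 ± 0.136 and 0.94 ± 0.136.

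Most like IL18 among 3001 such genes were KNG1 (0.997), PYROXD1 (0.996), TMEM87B (0.996), ERLEC1 (0.994) and TMEM191C (0.992). KNG1, which encodes kininogen, was at -0.84 ± 0.0733 and -0.72 ± 0.0733, close to IL18 in size. These genes were picked for their likeness over the same 6 arrays, so their values carry no test, and coefficients this high follow from 3 groups of like arrays.

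**Figure D5:**
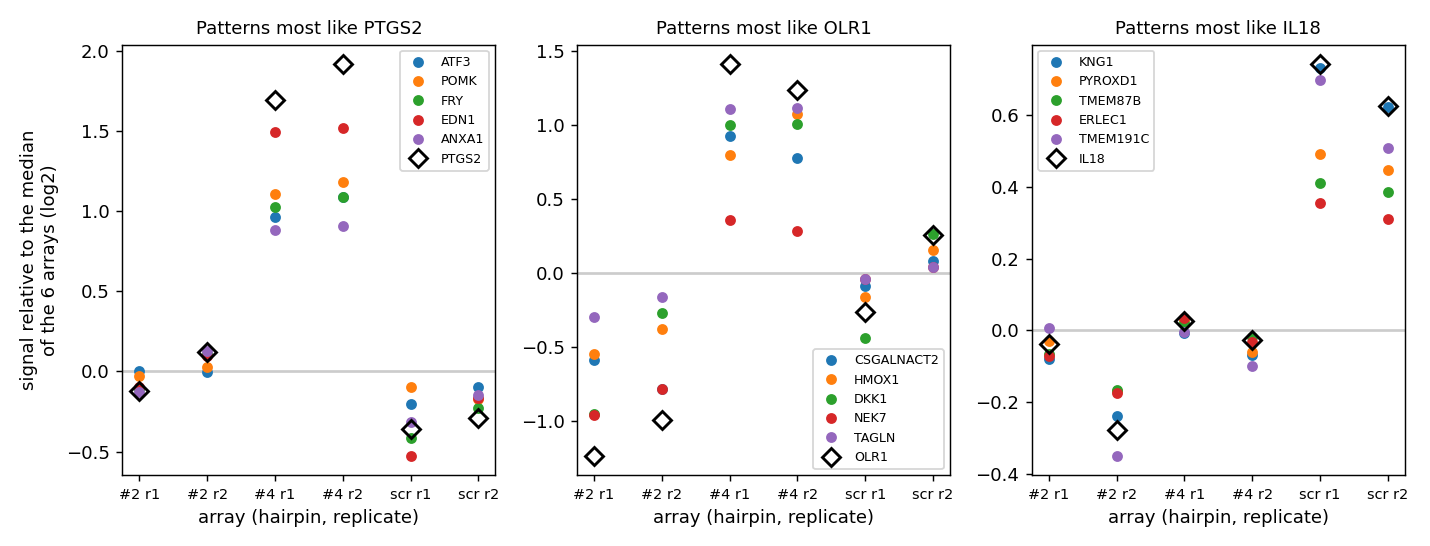
Signal relative to the median of the 6 arrays (log2) in each array for PTGS2, OLR1 and IL18 (open diamonds) and the 5 genes most like each (filled circles); #2, #4 and scr stand for shRNA#2, shRNA#4 and scramble and r1 and r2 for the replicates. PTGS2 is above its 5 genes in both shRNA#4 arrays, OLR1 is the most spread of its set, and IL18 lies on or near KNG1.

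Markers of other cells that can express OLR1 or PTGS2 were set beside these values. Of 12 measured macrophage, endothelial and lymphocyte markers, 0 rose and 1 fell with shRNA#2, and 1 rose and 1 fell with shRNA#4. Called shares were 8.33% and 16.7%, beside 21.6% and 26.1% of all genes. ESAM, an adhesion molecule of endothelium, stood at -0.06 and -0.24 with shRNA#2, at 0.63 in both shRNA#4 arrays, and at 0.03 and -0.03 with scramble. It rose by 0.63 ± 0.0701 with shRNA#4 (limma adjusted p 0.00176) and was lower with shRNA#2 than with shRNA#4 by 0.78 ± 0.0701 (0.00282). CSF1R, a macrophage receptor, fell by 0.36 ± 0.0613 and 0.25 ± 0.0613, and both calls ended when single arrays were left out (highest adjusted p 0.0607 and 0.117). Of 5 fibroblast and mesenchymal markers 0 rose and 1 fell with shRNA#2, and 2 rose and 1 fell with shRNA#4. In this short list the shares were 20.0% and 60.0%. TAGLN, an actin-binding protein, rose by 1.11 ± 0.0639 with shRNA#4 (0.000332), and VIM, vimentin, by 0.42 ± 0.0559 (0.00327). Between the hairpins VIM, the mean of 3 probe sets, was lower with shRNA#2 by 0.28 ± 0.0559 (0.022), a call that ended when single arrays were left out. With the first probe set alone the difference was larger, -0.57. It was not called under the adjustment over all 48144 probe sets (limma adjusted p 0.0641). THY1 fell by 0.19 ± 0.0509 and 0.21 ± 0.0509, calls that ended when any 1 of the 6 arrays was left out. Of 10 intestinal epithelial markers 0 rose and 4 fell with shRNA#2, and 1 rose and 4 fell with shRNA#4. As shares this was 40.0% and 50.0%, beside 21.6% and 26.1% of all genes. VIL1, a microvillus protein, fell by 0.48 ± 0.0684 and 0.74 ± 0.0684 (0.00514 and 0.00102). KRT20, a keratin of mature enterocytes, fell by 1.17 ± 0.238 and 1.20 ± 0.238, GPA33, an intestinal surface antigen, fell by 0.93 ± 0.202 and 1.02 ± 0.202, and KRT18 rose by 0.49 ± 0.123 with shRNA#4. The calls of these last 3 ended when single arrays were left out (highest adjusted p 0.0874, 0.099 and 0.143), and KRT18 was not called from the first of its 2 probe sets alone (0.158). The part of such markers in the values of PTGS2, OLR1 and IL18 was not tested.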

How the data were processed

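Total RNA of 6 samples was measured on 1-colour Affymetrix arrays from 100 ng of RNA, per the labels' protocols. The deposited values were taken as log2 signals that the authors had set relative to the median of each probe set over the 6 arrays. This was read from the values: all 48144 medians lay within 1e-06 of 0, with 0 values missing. Neither labels nor file headers state the summarisation, background correction, normalization or software. Signal over background was not analysed here, so no probe set was filtered out for being dim.

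Probe sets were named through the platform table (16098 with 1 symbol, 0 with several, 32046 with none) and averaged per gene, which concerned 779 genes with more than 1. Each sample's title gave its group and replicate number. limma 3.58.1 under R 4.3.3 fitted all 6 arrays in 3 groups (3 residual and 3.09 prior degrees of freedom), with Benjamini-Hochberg adjustment over 14884 genes. The labels call replicates biological without saying what separates them, so the spread behind a p-value may be partly technical. The fit was tested on simulated data.

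The 3 genes and the gene lists were chosen with earlier results of these data known. Genes were named by a rule: up to 4 called genes per list with the largest change with either hairpin and up to 2 with the largest difference between the hairpins, 16 genes that pair directly with PTGS2, OLR1 or IL18 where measured, 3 measured neighbours on each side, and 5 genes of the most similar pattern. List members without a symbol in the platform table were not analysed here. The fit was repeated with quantile normalization, arrays centred on their medians, a replicate block, only the arrays compared, a robust prior, the first probe set of each gene in a fit over all probe sets, a threshold of 0.01, and without each array in turn. In the probe set fit the adjustment ran over all 48144 probe sets, so a gene with 1 probe set could lose its call too. DUOX2 did so with shRNA#2 (limma adjusted p 0.0309 to 0.0664) while its difference stayed at -0.33. Python 3.11.15, pandas 2.3.3 and matplotlib 3.10.9 served for tables and figures.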

Additional observations from a re-analysis of the deposited data

Results flagged for a closer look

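OLR1 had both shRNA#2 arrays below and both shRNA#4 arrays above the scramble arrays, with a difference of -2.44 between the hairpins that was not tested. Genes were named partly because they were called, so nothing is read from the next count. Over all 14884 genes, 15.3% were called between the hairpins. Among the 76 genes named from lists, pairs and neighbours, 26 differed between shRNA#2 and shRNA#4 in the limma fit (adjusted p under 0.05). Values are log2 differences, shRNA#2 minus shRNA#4. Called whichever single array was left out were 13 of them. Of these FURIN (0.74), TRAF3 (0.52), ETV4 (0.43) and PTGR2 (0.42) were higher with shRNA#2. TAGLN (-1.34), NEK7 (-1.19), CXCL16 (-0.88), JUN (-0.85), ESAM (-0.78), TMEM52B (-0.68), ICAM1 (-0.68), TLR2 (-0.62) and IL18BP (-0.57) were lower. The calls of the other 13 ended when at least 1 array was left out. These were IGF2BP3 (0.60), ETV5 (0.55), PTGIS (0.54), TIA1 (0.54), PPARG (0.49), RIPK2 (0.43) and LTA4H (0.43) on the higher side. On the lower side they were VLDLR (-0.63), CCL20 (-0.49), IL32 (-0.44), DPP8 (-0.33), VIM (-0.28) and LPCAT3 (-0.27).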

How the results depend on the processing

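The differences of PTGS2, OLR1 and IL18 kept their sign under every alternative run. The replicate block, only the arrays compared and single probe sets leave these values as they are by construction. Quantile normalization and array centring can change them, and of the 18 values under those, 16 moved by less than the SD between replicates and 2 by more. With quantile normalization, OLR1 between the hairpins was -2.69 and IL18 with shRNA#4 was -0.53. Leaving out each array in turn gave, for OLR1, -1.37 to -0.85 with shRNA#2 and 1.07 to 1.58 with shRNA#4, and for IL18, -0.96 to -0.72 with shRNA#2 and -0.28 to -0.037 between the hairpins. The cause was not tested. Genes called with shRNA#2, with shRNA#4 and between the hairpins numbered 3220, 3884 and 2272, and 1575, 2122 and 769 at an adjusted p under 0.01. Leaving out each array in turn gave 1756 to 2982, 2677 to 3476 and 761 to 2166. With the replicate number as a block they were 3598, 4227 and 2637. Same-numbered arrays deviated together with r = 0.18, 0.12 and 0.20 between pairs of groups, with only 2 numbers. The block ended 0 of the 103 calls of named genes and added 12 (limma adjusted p). With shRNA#2 these were TAB3 (0.0122), ZC3H12C (0.0271), ETV5 (0.0348) and TAGLN (0.0356), and with shRNA#4 ETV5 (0.0337), TRAF5 (0.0366), CREM (0.0397) and DPP8 (0.0432). Between the hairpins they were KRT18 (0.0108), GSDMB (0.0262), PON3 (0.0450) and VIL1 (0.0458). With the block, the prostanoid receptor list had 2 falls with shRNA#2 and 1 rise with shRNA#4, the fibroblast list 1 rise and 2 falls with shRNA#2, the inflammasome list 2 rises and the NF-kappa-B list 1 fall with shRNA#4. Of those 103 calls, 54 held under every alternative run. The number of arrays limits precision throughout.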
